A study of Malus hupehensis and Malus pumila and Malus sylvestris with 10 samples.

Results

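The genes described here carry out the last steps of anthocyanin and proanthocyanidin synthesis, together with MYB10, a transcription factor that activates anthocyanin genes in apple. They were picked by gene ID: 10 of the 38700 IDs in the table, all of which were found. These are DFR (MD15G1024100), LDOX (MD06G1071600 and MD03G1001100), LAR (MD16G1048500 and MD13G1046900), ANR (MD10G1311100 and MD05G1335600), UFGT (MD01G1234400 and MD07G1306900) and MYB10 (MD09G1278600). The table pairs no ID with a name, so the names are those that came with the list of IDs, and they were not checked against an annotation.

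The values come from RNA sequencing of phloem of the crab apple Malus sylvestris, a vigorous rootstock that the labels class as a control and as wild type (WT), sampled 60 days after bud break. The group has 2 samples, called library 1 and library 2 here. Whether these were taken from separate trees is not stated, and their spread may therefore be technical only. The series also holds 2 samples each of the rootstocks A1d (a Malus hupehensis mutant with partial gibberellin insensitivity), B9 and M9, all dwarfing, and of PYTC, the vigorous wild type of A1d. These 8 samples were not analysed here, and no contrast between rootstocks was made.

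Values are FPKM as deposited, that is, fragments relative to gene length and to the depth of the library. The depths inferred from the spacing of low values were 18538960 fragments for library 1 and 16572066 for library 2. Across all IDs, log2(FPKM + 1) of the libraries had a Pearson's r of 0.989, which describes agreement over genes that are not independent replicates. Markers of phloem, wood, cork and green tissue had been listed by symbol and could not be looked up among unnamed IDs, so the labelled tissue was not checked. In a bulk sample, fewer cells that express a gene and less RNA of it per cell cannot be told apart.

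Anthocyanins are red to blue pigments, and proanthocyanidins, or condensed tannins, are colourless polymers of flavan-3-ols such as catechin and epicatechin. Both arise from the same flavonoid precursors. DFR (dihydroflavonol 4-reductase) makes leucoanthocyanidins, and LDOX (leucoanthocyanidin dioxygenase, also called anthocyanidin synthase) oxidises these to anthocyanidins. LAR (leucoanthocyanidin reductase) draws on the product of DFR and ANR (anthocyanidin reductase) on that of LDOX to make flavan-3-ols. UFGT (UDP-glucose:flavonoid 3-O-glucosyltransferase) instead adds sugar to anthocyanidins, which gives stable anthocyanins. In apple, MYB10 and its alleles are known for switching on the pigment genes in red skin, flesh and leaves.

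Every enzyme family on the list was expressed in the samples labelled as phloem, while MYB10 was close to the limit of detection. At a floor of 1 FPKM in both libraries, 9 of the 10 genes were detected, against 67.9% of all IDs. The mean level was above the median of all IDs for 8 of the 10, against 50% of IDs by construction. The exceptions were the UFGT copy MD07G1306900 and MYB10. The median of the 10 mean levels was 32.5 FPKM, against 4.57 FPKM for the median ID of the table. The summed FPKM of the 10 genes was 466 in library 1 and 630.2 in library 2, or 0.0706% and 0.0946% of the sum over all IDs.

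**Figure D1:**
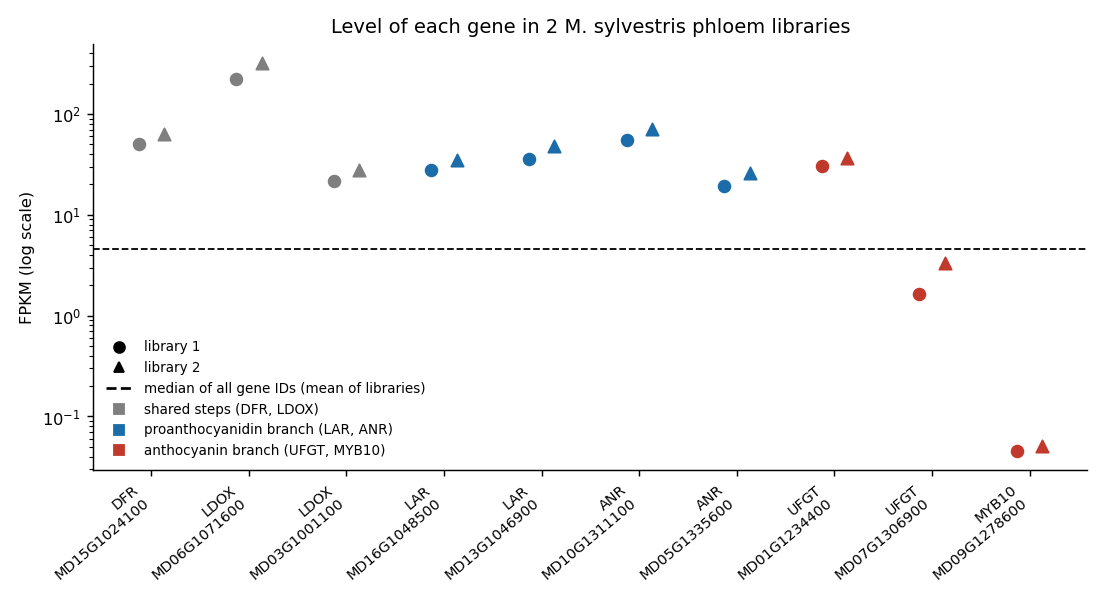
FPKM of each gene on a log axis in library 1 (circles) and library 2 (triangles), coloured by position in the pathway, with the median of all gene IDs, 4.57 FPKM, as a dashed line. The LDOX copy MD06G1071600 is highest, at 223 and 318 FPKM, 7 other enzyme genes lie between 19.1 and 71.4 FPKM, and MYB10 lies near 0.05 FPKM.

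The steps shared by both branches held the highest gene of the list. LDOX MD06G1071600 had 223 FPKM in library 1 and 318 in library 2 (271 ± 66.9, SD, n = 2), on 5383 and 6851 fragments. It ranked 239 of 38700 by its mean, above 99.4% of IDs, and both of its values exceeded every value of the other 9 genes. DFR MD15G1024100, the entry to both branches, stood at 50.9 and 64.1 FPKM (57.5 ± 9.28, SD, n = 2) and ranked 1969. The other LDOX copy, MD03G1001100, was at 21.6 and 27.8 FPKM (24.7 ± 4.45, SD, n = 2), rank 5487.

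The LDOX copies thus shared their level very unevenly. MD06G1071600 was 10.4 times as high as MD03G1001100 in library 1 (95% exact interval 9.64 to 11.2) and 11.4 times as high in library 2 (10.7 to 12.2). These intervals, like all those on ratios below, cover counting error only. Together the LDOX copies held 52.6% of the summed FPKM of the 10 genes in library 1 and 54.9% in library 2. Their sum was 4.81 times that of DFR in library 1 and 5.40 times in library 2.

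In the proanthocyanidin branch, all 4 genes were expressed at moderately high levels. ANR MD10G1311100, which codes for the enzyme that turns cyanidin into epicatechin, was the highest of them with 55.8 FPKM in library 1 and 71.4 in library 2 (63.6 ± 11.0, SD, n = 2), rank 1734. The other ANR copy, MD05G1335600, was at 19.1 and 25.8 FPKM (22.5 ± 4.71, SD, n = 2), rank 6051. The libraries' values of the ANR copies did not overlap, and MD10G1311100 was 2.91 times as high as MD05G1335600 in library 1 (2.65 to 3.20) and 2.77 times in library 2 (2.54 to 3.01).

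The LAR genes, whose enzyme makes catechin directly from leucocyanidin, were more alike in level. MD13G1046900 was at 35.4 and 47.8 FPKM (41.6 ± 8.77, SD, n = 2), rank 2889. MD16G1048500 was at 27.6 and 35.2 FPKM (31.4 ± 5.37, SD, n = 2), rank 4111. The lowest value of MD13G1046900 lay just above the highest of MD16G1048500. Their ratio was 1.28 in library 1 (1.15 to 1.43) and 1.36 in library 2 (1.23 to 1.50). The 531 and 641 fragments recovered for MD13G1046900, at a length of 809 bases, are the fewest that give its FPKM. The true number may be a multiple of these, which would leave its FPKM and ratios as they are and narrow the intervals. Summed by family, ANR was 1.19 times LAR in library 1 and 1.17 times in library 2, so both routes to flavan-3-ols were represented at like levels.

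In the anthocyanin branch, a single gene carried nearly all of the level. UFGT MD01G1234400 had 30.5 FPKM in library 1 and 36.8 in library 2 (33.6 ± 4.46, SD, n = 2), rank 3780. It held 94.8% of the summed FPKM of the branch in library 1 and 91.5% in library 2. The other UFGT copy, MD07G1306900, was at 1.63 and 3.35 FPKM (2.49 ± 1.22, SD, n = 2), on 56 and 103 fragments, and at rank 23189 it was above only 40.1% of IDs. The ratio of the UFGT copies was 18.7 in library 1 (14.3 to 24.9) and 11.0 in library 2 (8.97 to 13.6), so even the counting intervals of the libraries did not overlap for this pair.

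MYB10 MD09G1278600 was listed with 0.0454 FPKM in library 1 and 0.0508 in library 2 (0.0481 ± 0.00381, SD, n = 2). Each value corresponds to as little as 1 fragment. A count of 1 has a 95% exact interval of 0.00115 to 0.253 FPKM for library 1 and 0.00129 to 0.283 FPKM for library 2, so the close agreement of the values says little about the true level. MYB10 ranked 34622, and 4079 IDs were at or below its mean, of which 2811 were listed at 0 in both libraries. UFGT MD01G1234400 was 670 times as high as MYB10 in library 1 (120.0 to 26495) and 723 times in library 2 (129.5 to 28588), intervals that are wide because they rest on 1 fragment.

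**Figure D2:**
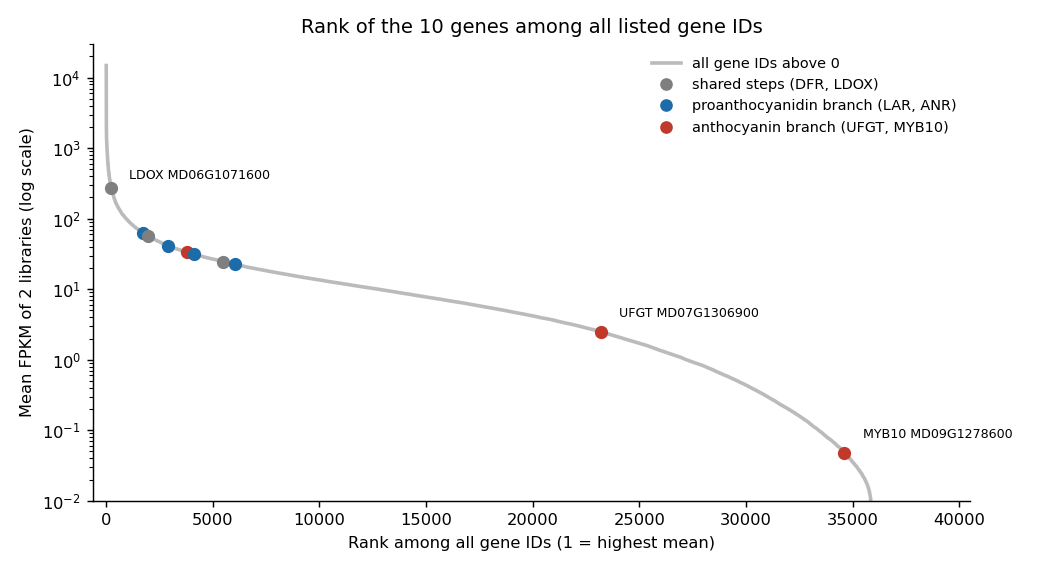
Mean FPKM of the 2 libraries on a log axis against rank among all 38700 gene IDs (grey line, IDs above 0), with the 10 genes as points coloured by position in the pathway. Ranks of 8 genes run from 239 to 6051, while UFGT MD07G1306900 is at 23189 and MYB10 at 34622.

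The order of the 10 genes by level was the same in both libraries, for each of the 9 pairs of neighbours in that order. From high to low it ran LDOX MD06G1071600, ANR MD10G1311100, DFR, LAR MD13G1046900, UFGT MD01G1234400, LAR MD16G1048500, LDOX MD03G1001100, ANR MD05G1335600, UFGT MD07G1306900 and MYB10. For 5 of the 9 neighbouring pairs the ranges over both libraries overlapped, but all 9 detected genes were lower in library 1, so neighbours are better compared within a library. ANR MD10G1311100 over DFR was 1.09 in library 1 (1.02 to 1.18) and 1.11 in library 2 (1.04 to 1.19). LAR MD13G1046900 over UFGT MD01G1234400 was 1.16 (1.05 to 1.29) and 1.30 (1.18 to 1.43), and LAR MD16G1048500 over LDOX MD03G1001100 was 1.28 (1.16 to 1.41) and 1.26 (1.16 to 1.38). For the other two overlapping pairs the interval took in 1 in library 2. UFGT MD01G1234400 over LAR MD16G1048500 was 1.10 (1.01 to 1.21) and 1.05 (0.960 to 1.14), and LDOX MD03G1001100 over ANR MD05G1335600 was 1.13 (1.01 to 1.25) and 1.08 (0.979 to 1.19). These neighbours were thus not told apart beyond counting error in both libraries. Clear gaps lay below the highest LDOX copy, which was 4.01 times the next gene in library 1 and 4.46 times in library 2, and below ANR MD05G1335600, which was 11.8 times UFGT MD07G1306900 in library 1 and 7.71 times in library 2. DFR lay above LAR MD13G1046900 by a smaller gap, 1.44 times in library 1 and 1.34 times in library 2. UFGT MD07G1306900 over MYB10 was the widest gap, 35.8 times in library 1 (6.17 to 1440) and 65.9 times in library 2 (11.6 to 2627). These wide intervals rest on as little as 1 fragment of MYB10.

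Set against each other, the proanthocyanidin branch stood above the anthocyanin branch in both libraries. LAR and ANR summed to 138 FPKM in library 1 and 180.2 in library 2 (159 ± 29.9, SD, n = 2). UFGT and MYB10 summed to 32.1 FPKM in library 1 and 40.2 in library 2 (36.1 ± 5.68, SD, n = 2). The ratio of the branches was 4.29 in library 1 and 4.49 in library 2 (4.39 ± 0.137, SD, n = 2), and it does not depend on how the libraries were scaled because both sums come from the same library. The ratio was above 1 in 2 of 2 libraries, and an exact two-sided permutation test of its log2 value against 0 gave p = 0.5, the smallest that 2 libraries allow.

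Each flavan-3-ol family alone was above the UFGT pair. The LAR sum was 1.96 times the UFGT sum in library 1 and 2.07 times in library 2, and the ANR sum was 2.33 and 2.42 times the UFGT sum. The branches nevertheless overlapped gene by gene: UFGT MD01G1234400 was higher than ANR MD05G1335600, by 1.59 times in library 1 (1.44 to 1.76) and 1.42 times in library 2 (1.30 to 1.57), and it stood between the LAR genes in both libraries. The size of the ratio depended on the summary. The branches hold 4 and 3 genes, MYB10 being 1 of the 3, and the ratio of the mean level per gene was 3.29. MYB10, at 0.0481 FPKM, adds almost nothing to the anthocyanin sum, which thus sets 2 UFGT genes against 4 LAR and ANR genes. Counting it as a gene lowers the anthocyanin mean and so raises the ratio per gene. The family ratios above, with 2 genes on each side, are free of both effects. The highest gene of each branch gave a smaller ratio. ANR MD10G1311100 was 1.83 times UFGT MD01G1234400 in library 1 (1.70 to 1.97) and 1.94 times in library 2 (1.81 to 2.09). Leaving out both of these genes raised the branch ratio to 40.5. Only the low UFGT copy and MYB10 were then left on the anthocyanin side.

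**Figure D3:**
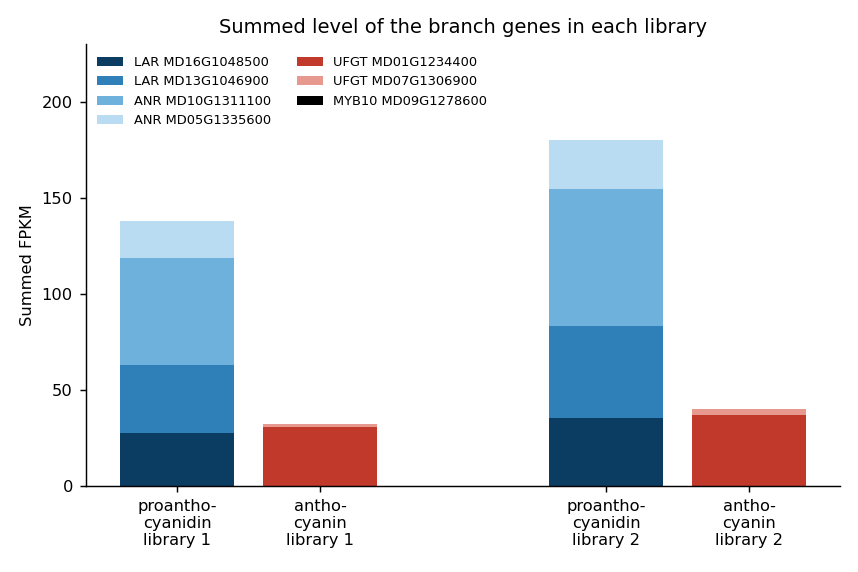
Summed FPKM of the proanthocyanidin branch (LAR and ANR, blues) and of the anthocyanin branch (UFGT and MYB10, reds and black) in each library, with each gene as a segment of the bar. The proanthocyanidin bars reach 138 and 180.2 FPKM, the anthocyanin bars 32.1 and 40.2 FPKM, and the MYB10 segment is too thin to see.

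The listed enzyme genes differed between the libraries in the same direction. All 9 genes that averaged at least 1 FPKM were lower in library 1 than in library 2, while 46.3% of the 27203 IDs at that level were. This share rose with level. It was 47.4% of IDs at 20 to 50 FPKM, 55.4% at 50 to 100 FPKM and 60.3% at 100 FPKM or more. The differences of the 9 genes in log2(FPKM + 1), library 1 minus library 2, ran from -0.73 for UFGT MD07G1306900 to -0.26 for UFGT MD01G1234400. The median of the 9 was -0.36, against 0.02 over all IDs at that level, whose SD was 0.30. On this scale none of the 9 was over 2-fold apart, a size that 1.23% of IDs passed. The pseudocount of 1 damps low genes, and UFGT MD07G1306900, at 1.63 and 3.35 FPKM, was over 2-fold apart in plain FPKM and with a pseudocount of 0.01. Over 2-fold lower in library 1 were 0.213% of IDs. MYB10 had as little as 1 fragment in each library and gives no difference.

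Set against IDs of like level, each of these genes lay toward the low end. LDOX MD06G1071600, with a difference of -0.51, was lower than all but 0.426% of the 939 IDs at 100 FPKM or more, whose SD was 0.22. Among the 4519 IDs from 20 to 50 FPKM, whose SD was 0.23, LAR MD13G1046900 (-0.42) was lower than all but 1.50%, ANR MD05G1335600 (-0.41) than all but 1.73%, and UFGT MD01G1234400 (-0.26) than all but 6.86%. In the same range, LAR MD16G1048500 (-0.34) was lower than all but 3.36% and LDOX MD03G1001100 (-0.36) than all but 3.01%. DFR (-0.33) and ANR MD10G1311100 (-0.35) were lower than all but 6.28% and 5.11% of the 1369 IDs from 50 to 100 FPKM. UFGT MD07G1306900 was lower than all but 1.04% of the 5563 IDs from 2 to 5 FPKM.

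**Figure D4:**
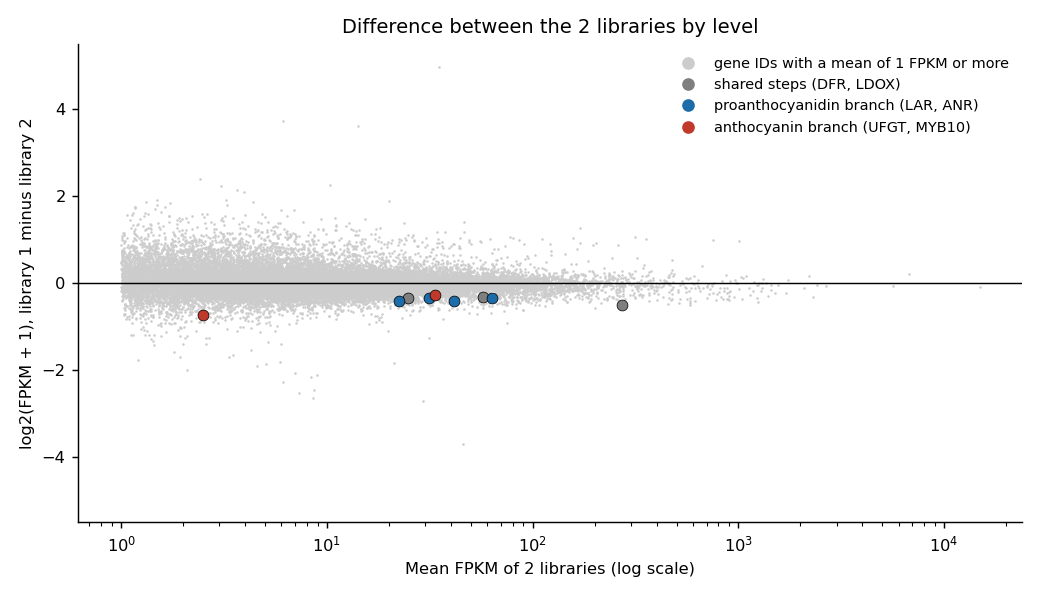
Difference in log2(FPKM + 1), library 1 minus library 2, against mean FPKM on a log axis for the 27203 gene IDs that averaged at least 1 FPKM (light grey), with 9 of the 10 genes coloured by position in the pathway. All 9 lie below 0, from -0.73 to -0.26. MYB10 is not drawn because its mean, 0.0481 FPKM, is under 1 FPKM.

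The spread of these genes exceeded counting error. In a two-sided exact binomial test of recovered fragments against the ratio of the library totals, with Benjamini-Hochberg adjustment over the 30589 IDs with 10 or more fragments, all 9 tested genes passed an adjusted p of 0.05, and all 9 were lower in library 1. Over all IDs 15.3% passed and 6.32% were lower in library 1. Calls are more frequent at high counts: of the 7439 IDs with 1000 or more fragments, 14.7% were called lower in library 1, against 8 of 8 of the listed genes with as many. By level, 10.7% of IDs at 20 to 50 FPKM were called lower in library 1. The share was 19.6% at 50 to 100 FPKM and 35.9% at 100 FPKM or more, the range of LDOX MD06G1071600. This test compares 2 libraries of 1 rootstock and not conditions, and the genes of a library are not independent of each other.

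The level in library 1 relative to library 2 was 0.702 for LDOX MD06G1071600 (0.678 to 0.728; adjusted exact binomial p = 1.24e-81), 0.795 for DFR (0.737 to 0.858; p = 7.78e-08) and 0.828 for UFGT MD01G1234400 (0.762 to 0.901; p = 0.000176). The LAR and ANR genes and the other LDOX copy ranged from 0.741 for LAR MD13G1046900 to 0.784 for LAR MD16G1048500. UFGT MD07G1306900 had the lowest of the 9 values, 0.486 (0.345 to 0.679; adjusted exact binomial p = 0.000191). By branch, the sum in library 1 was 0.765 times that in library 2 for LAR and ANR and 0.800 times for UFGT and MYB10, so both branches were lower in library 1 by like proportions and their ratio changed little.

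The table lists IDs in the order of their numbers, and the IDs directly before and after each gene varied widely in level. Those flanking LDOX MD06G1071600 averaged 19.6 and 17.5 FPKM, against 271 FPKM for the gene itself. Those flanking DFR averaged 12.5 and 16.4 FPKM, and the ID before it had 12.4 FPKM in library 1 and 12.6 in library 2. ANR MD05G1335600 lay between an ID at 0.0792 FPKM and an ID listed at 0 in both libraries. MYB10 was preceded by an ID at 67.4 FPKM in library 1 and 54.1 in library 2, and followed by one listed at 0 in library 1 and at 0.0629 FPKM in library 2. Those flanking LDOX MD03G1001100 averaged 8.38 and 3.07 FPKM, those flanking LAR MD16G1048500 averaged 7.83 and 5.19 FPKM, and those flanking LAR MD13G1046900 averaged 7.34 and 3.92 FPKM, all below the gene between them. ANR MD10G1311100, at 63.6 FPKM, lay between an ID at 0.0447 FPKM and a higher one at 82.9 FPKM. UFGT MD07G1306900, at 2.49 FPKM, lay between higher IDs at 23.7 and 16.5 FPKM. Those flanking UFGT MD01G1234400, at 20.6 and 31.6 FPKM, were near its own level of 33.6 FPKM. No names were at hand for these flanking IDs.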

How the data were processed

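Per the labels' protocols, sequencing libraries came from total RNA by a stranded mRNA kit. The authors deposited FPKM values, 1 column per sample; the submitters' processing notes name Trimmomatic, HISAT2, Cufflinks and HTSeq, with neither version nor role. Not given in the sources used here are the genome build, the annotation and the handling of reads that match several near-identical copies, which makes the values of gene copies uncertain.

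The 10 genes and all summaries were chosen with earlier results of these data known; all 10 are named, and IDs of other pathway genes, which would need names, were not used. Differences were taken in log2(FPKM + 1). Fragments were recovered from the value steps: the most frequent ratio of low values gave the ratio of depths (0.894), and the totals were the largest that gave whole gene lengths (within 0.003 bases) for 65% or more of the genes whose ratio was an irreducible fraction. Each gene was given the smallest length from 50 to 30000 bases with whole fragments (within 0.0005) in both libraries, so fragments are the fewest possible. All 35889 IDs above 0 came out whole, and the fragments summed to 90.2% of each total. PCR copies are not independent molecules, so intervals cover counting error only. The recovery and the exact binomial test were tested on simulated data with counting error only, built on the recovered lengths and fragments. Such data cannot show that the recovered fragments are the true ones. Nor can they show how the test behaves where libraries differ by more than counting error. Python 3.11.15, NumPy 2.4.6, SciPy 1.17.1 and pandas 2.3.3 were used. Alternatives covered pseudocounts, floors, filters, scaling, branch summaries and leaving out either library.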

Additional observations from a re-analysis of the deposited data

How the results depend on the processing

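The proanthocyanidin branch stood above the anthocyanin branch under every alternative run, but the ratio of 4.39 moved with the summary. It was 3.29 with the mean per gene, 15.9 with the median over genes and 40.5 without the highest gene of each branch. LAR only gave 2.01 and ANR only 2.38. Sums of recovered fragments in place of FPKM gave 3.60. These sums were not divided by gene length and so are not the same measure as FPKM. Leaving out either library gave 4.29 to 4.49, and leaving out MYB10 from the sum gave 4.39. The mean and the median over genes count MYB10 as 1 of the 3 anthocyanin genes, and they were not run without it. With MYB10 counted, the median of the anthocyanin side was the low UFGT copy MD07G1306900. The number of genes detected ran from 8 at floors of 5 and 10 FPKM to 10 at any value above 0, and 8 genes stayed above the median under all 4 alternatives run. With a pseudocount of 0.01, 1 gene, UFGT MD07G1306900, was over 2-fold apart between the libraries, against 0 with a pseudocount of 1, which damps low genes. All 9 genes passed the exact binomial test under the 3 alternatives run. Scaling both libraries to the same sum multiplied levels by 1.51 in library 1 and 1.50 in library 2, too small a difference to bear on the contrast between the libraries. Depth limits MYB10, whose values rest on as little as 1 fragment. Recovered fragments are the fewest possible, so the branch ratio based on them may be off where a gene such as LAR MD13G1046900 rests on a multiple. No paired analysis was possible because both libraries belong to the same group.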
